A study of Arabidopsis thaliana with 6 samples.

Results

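Strong peaks of the noncoding RNA HID1 that appeared with glutaraldehyde fixation and not with formaldehyde fixation, and that lay in protein-coding genes of the Arabidopsis thaliana chromosome arms, made up 718 of the 6306 glutaraldehyde peaks (11.4%, exact 95% interval 10.6 to 12.2). They were chosen by measured values. A peak was taken if the authors' peak caller gave it a score of at least 100, if it overlapped no formaldehyde peak by 1 bp or more, and if its midpoint lay inside a protein-coding gene body and outside a central interval of its chromosome. The central intervals are approximate pericentromeric positions, namely 11500000 to 17700000 on chromosome 1, 1100000 to 7200000 on chromosome 2, 10300000 to 17300000 on chromosome 3, 1500000 to 6300000 on chromosome 4 and 9000000 to 16000000 on chromosome 5. Score, lack of overlap, arm position and coding location are therefore properties of the choice, and they are given below as description.

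The study asked what HID1 does in seed germination under phytochrome B, the red light receptor, with abscisic acid (ABA) as the hormone in view. The glutaraldehyde and formaldehyde libraries were both made from wild-type Col-0 seeds, 0.3 g per assay, that had received 5 min of red light (the condition in which phytochrome B is active) and then 48 h of darkness. Seeds were fixed for 20 min in 1% glutaraldehyde or in 1% formaldehyde, and chromatin was recovered with biotinylated antisense DNA probes to the whole of HID1. The series has 6 libraries in 3 groups of 2, which are HID1 probes, unlabelled probes (mock) and input. Only the HID1 probe libraries enter this account; mock and input were not used here.

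With 1 library per cross-linker there is no replicate check, and cross-linker and library cannot be told apart. No test between cross-linkers was possible, the read depth is unknown from peak lists, and the intervals given cover counting error only. Whole seeds were used, so embryo, endosperm and seed coat contribute to the same chromatin. Sharing with formaldehyde was of similar frequency in strong and weak peaks, with overlapping intervals: 58 of 776 strong glutaraldehyde peaks in coding genes of the arms overlapped a formaldehyde peak (7.47%, 5.72 to 9.56), against 170 of 2679 weaker ones (6.35%, 5.45 to 7.34).

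Chromatin isolation by RNA purification (ChIRP) recovers DNA that is cross-linked, directly or through proteins, to a chosen RNA. Glutaraldehyde joins amines over a longer reach than formaldehyde and its links are hard to reverse, and it is the fixative of the original ChIRP protocols. Long noncoding RNAs can act on the gene they are transcribed next to or on distant genes. In seeds, ABA and gibberellin act in opposite directions on germination, and phytochrome B acts on the synthesis and breakdown of both hormones.

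The HID1 locus itself carried the highest scoring glutaraldehyde peak, at chromosome 2 from 15028597 to 15030657 where it scored 2149.6. It overlapped a formaldehyde peak and so is not one of the 718. The nearest of the 718 was in MEE25, 324 kb away, with a score of 110.1.

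Within the 718, scores lay between 100.04 and 375.5 with a median of 128.9, and only 6 peaks reached 300. The highest score, 375.5, belonged to a peak of 1958 bp on chromosome 5 from 7874478 to 7876435 that covered all of MIA40, which encodes an oxidoreductase for protein import into the mitochondrial intermembrane space, and also touched the neighbouring gene AT5G23390. The second, in AT5G25170 on chromosome 5 from 8692728 to 8694006, scored 364.7. The third lay wholly inside BRI1, the cell-surface receptor of the brassinosteroid hormones, at chromosome 4 from 18325790 to 18326886 (score 340.1). Its midpoint was at 43.0% of the gene's length. AT1G29030 had a peak with a score of 327.2 at its very edge, with the midpoint 17 bp inside the gene, on chromosome 1 from 10128421 to 10129612.

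Among the 20 highest, 4 were in genes with known roles on chromosomes or DNA, grouped here by role after the genes were seen and for order alone. DME, the DNA glycosylase that removes methylated cytosine in the central cell of the female gametophyte, had a peak with a score of 324.4 on chromosome 5 from 1309389 to 1310653, wholly inside the gene at 9.79% of its 9422 bp. CDT1A, which licenses replication origins, had one of 286.7 on chromosome 2 from 13330960 to 13332221, at 91.9% of the gene. TTN7, the SMC3 subunit of cohesin, had one of 281.0 on chromosome 2 from 11616422 to 11617553, at 94.0% of 8424 bp. The CDT1A and TTN7 peaks had their midpoints 241 and 509 bp inside the nearer edge, and that of DME 922 bp inside, beyond the 576 bp median of the 718 peaks. SGF29b, named for a subunit of the SAGA histone acetyltransferase complex, had a peak with a score of 252.2 on chromosome 5 from 16240587 to 16241671, at 5.02% of the gene.

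A further 5 of the 20 were in genes of hormone, calcium or energy signalling, again grouped only for order. JAZ4, a repressor of jasmonate responses, held the widest of all 718 peaks, at 2107 bp on chromosome 1 from 17933029 to 17935135 (score 284.2). IAA7, an auxin response repressor, had a peak with a score of 259.0 on chromosome 3 from 8195425 to 8196830, and a formaldehyde peak met the same gene without overlapping it. CPK15, a calcium-dependent protein kinase, scored 290.9 on chromosome 4 from 11641101 to 11642256. CNGC15, a cyclic nucleotide-gated channel, scored 289.0 with a peak of 1998 bp on chromosome 2 from 12049214 to 12051211, which also touched a long noncoding RNA gene, AT2G08260. SNF4, a regulatory subunit of the SnRK1 energy-sensing kinase, scored 268.6 with a peak at 64.6% of the gene, on chromosome 1 from 2902367 to 2903755.

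The other 7 of the 20 highest were in genes of varied or unassigned roles. GRP5, a glycine-rich cell wall protein, scored 302.2, and BXL2, a beta-xylosidase that acts on cell wall xylan, scored 268.9. BCS1, a mitochondrial AAA ATPase, scored 262.9 and Phox4 scored 267.0. AT3G20015, AT5G60720 and AT3G55080 scored 292.7, 250.1 and 247.8. None of the 20 highest belonged to the lists of ABA or gibberellin genes described below, and 1, BRI1, belonged to the brassinosteroid list.

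Strong glutaraldehyde-only peaks were narrower than strong formaldehyde-only peaks chosen in the same way (468 peaks with a score of at least 100, no overlap, in coding genes of the arms). The median width was 843 bp, with quartiles of 689 and 1036 bp, against 1074 bp with quartiles of 921 and 1373 bp in the formaldehyde set, while the median scores were 128.9 and 128.7. Weaker glutaraldehyde-only peaks in coding genes of the arms, with scores under 100, had a median width of 622 bp. The scores depend on each library's depth, which is unknown, so equal scores need not mean equal signal. Width differed within score ranges of the same bounds as well: between 150 and 200 the medians were 946 bp with glutaraldehyde and 1206 bp with formaldehyde, and between 100 and 120 they were 754 and 1019 bp. Within the 718 peaks width was larger at higher scores (Spearman rho 0.348 across peaks, which are not independent replicates and share 1 library), and score had no such relation to gene length (rho -0.00261). After JAZ4 and CNGC15 the widest peaks were those of MIA40, of AT3G59540 with 1953 bp and a score of 218.9, and of PUB25, a U-box ubiquitin ligase, with 1861 bp and a score of 175.7.

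**Figure D1:**
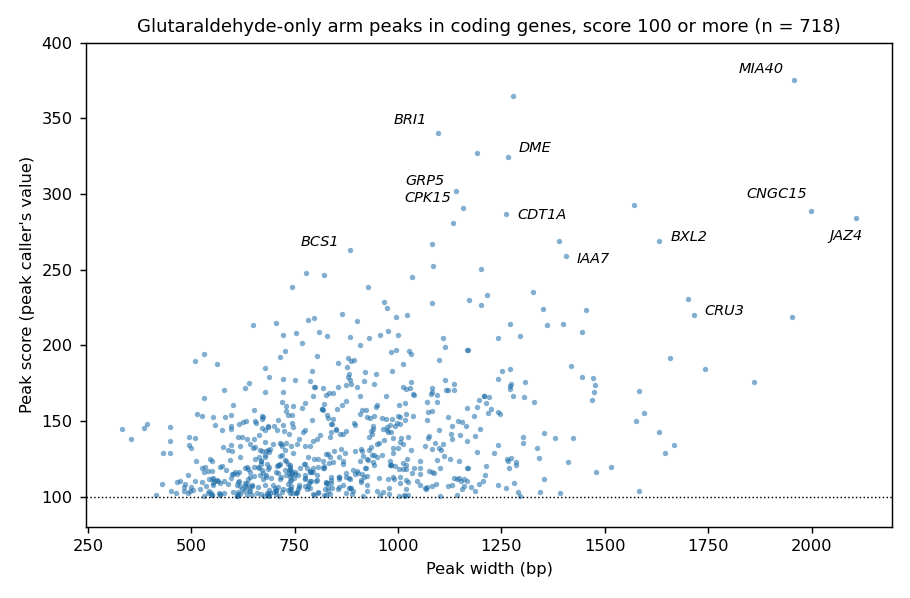
Peak score (the caller's value) against peak width in bp for the 718 strong glutaraldehyde-only arm peaks in coding genes, each point 1 peak, with the score minimum of 100 as a dotted line. The quartiles of width are 689 and 1036 bp, the median score is 128.9, and the peaks of MIA40, CNGC15 and JAZ4 stand at the upper right with high scores and widths.

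The score minimum of 100 divides a continuous series. Just above it were peaks in AT5G03250 (100.3), AT2G34750 (100.2), GDI2, a regulator of Rab GTPases (100.2), AT4G11120 (100.1) and AT2G42240 (100.04). Just below it were AT4G01671 (99.9), AT1G75870 (99.9), AT4G24320 (99.8), AT3G59890 (99.8) and AT2G41670 (99.8). The 718 peaks were 22.2% of the 3227 glutaraldehyde-only peaks in coding genes of the arms, and the 468 formaldehyde peaks were 21.5% of 2174.

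The coding location was less frequent among glutaraldehyde peaks than among formaldehyde peaks. Of 1096 strong unshared glutaraldehyde peaks on the arms, 718 had the midpoint in a coding gene (65.5%, 62.6 to 68.3), close to the 65.9% of the weaker ones, against 468 of 552 strong unshared formaldehyde peaks (84.8%, 81.5 to 87.7). Only peaks with such a midpoint are described here, so those in front of genes and between genes are not part of the 718. Coding genes cover much of the 88.0 Mb of arms. Those under 1, of 1 to 2 and of 2 to 3 kb cover 2.25, 11.6 and 16.5 Mb. Those of 3 to 4, of 4 to 6 and of 6 kb or more cover 11.7, 10.1 and 6.44 Mb. Most midpoints placed without regard to genes would fall in one, so 65.5% is not read as a preference for coding genes.

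The peaks also differed from the formaldehyde set in where in the gene they lay. The midpoints of the 718 peaks were spread over the gene with a slight excess at the ends: counted in deciles of the gene's length along the chromosome, the first held 10.7% of them, the fifth 9.19% and the last 12.3%. Strong formaldehyde-only midpoints were concentrated in the interior, with 2.99% in the first decile, 15.0% in the fifth and 4.49% in the last. In the first and last 20% of the gene together lay 318 of 718 glutaraldehyde midpoints (44.3%, 40.6 to 48.0), against 124 of 468 formaldehyde midpoints (26.5%, 22.6 to 30.7). The weaker glutaraldehyde-only peaks were at 41.7% (39.8 to 43.6), so the even spread was common to glutaraldehyde peaks of either strength. The gene table has no strand, and the 5′ and 3′ ends cannot be told apart.

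**Figure D2:**
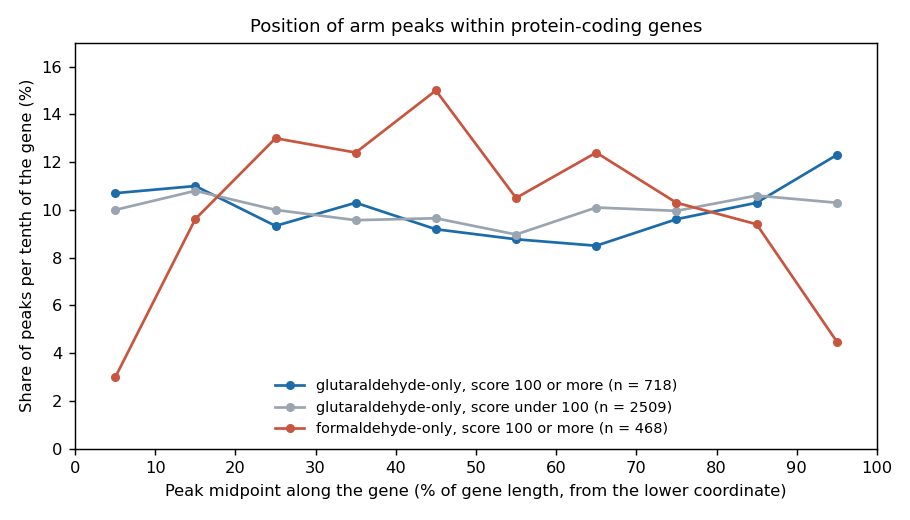
Share of peak midpoints, in percent, in each decile of the gene's length along the chromosome for strong glutaraldehyde-only, weaker glutaraldehyde-only and strong formaldehyde-only arm peaks. The first decile holds 10.7% of the strong glutaraldehyde-only midpoints and 2.99% of the formaldehyde ones, and the fifth holds 9.19% and 15.0%.

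The difference in position was also present among long genes and among peaks of like width. In genes of at least 3 kb, 155 of 315 glutaraldehyde midpoints were in the first or last 20% (49.2%, 43.6 to 54.9), against 64 of 222 formaldehyde midpoints (28.8%, 23.0 to 35.3). Among peaks of 700 to 1100 bp the shares were 177 of 390 (45.4%, 40.4 to 50.5) with glutaraldehyde and 63 of 232 (27.2%, 21.5 to 33.4) with formaldehyde. Both restrictions were chosen with these values in view. For peaks with at least 90% of their length inside the gene the shares were closer, 24.8% (21.0 to 28.9) and 15.0% (11.4 to 19.2).

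Counted by edges, 270 of the 718 peaks (37.6%) covered 1 edge of the gene, 12 covered the whole gene and 436 (60.7%) lay inside it, against 34.2%, 15 peaks and 62.6% in the formaldehyde set. The 5 highest scoring peaks over an edge were those of MIA40, AT5G25170, AT1G29030, GRP5 and AT3G20015. The median distance of the midpoint to the nearer edge was 576 bp for the 718 peaks and 760 bp for the formaldehyde set. Noncoding genes or pseudogenes were touched by 28 of the 718 peaks (3.90%), against 4.70% in the formaldehyde set. Of these, 3 touched small RNA genes: the peak of AT1G78476 (score 139.9, chromosome 1 from 29524333 to 29525407) met MIR833a and MIR833b, a peak of AT2G41620 (114.6) met MIR778, and that of COR413-PM2, a cold-regulated membrane protein (112.9), met a small nucleolar RNA gene.

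Because 11 of the peaks had a midpoint in overlapping genes and some genes held several, the 718 peaks fell in 714 of the 24061 protein-coding genes of the arms, which is 2.97% of them. That share is the background for the gene groups below, and strong formaldehyde-only peaks were in 478 of the same genes (1.99%). Genes with a strong glutaraldehyde-only peak were longer than arm genes in general, with a median of 2769 bp against 2120 bp. The share of genes with such a peak was 0.938% of genes under 1 kb (32 of 3413), 3.20% at 2 to 3 kb (215 of 6714) and 8.01% at 6 kb or more (64 of 799, 6.22 to 10.1). Per Mb of gene body the order was the reverse, with 14.2 peaks in genes under 1 kb and 10.7 in genes of 6 kb or more, so long genes held no more peaks per length than short ones.

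**Figure D3:**
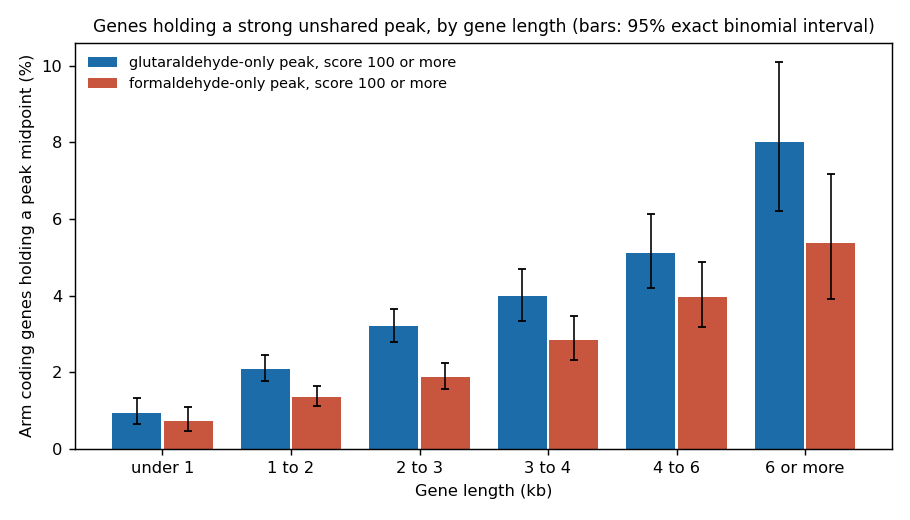
Share of arm protein-coding genes holding a strong peak, in percent, by gene length in kb, for glutaraldehyde-only and formaldehyde-only peaks, with exact 95% intervals. The share for glutaraldehyde is 0.938% under 1 kb and 8.01% at 6 kb or more, against 0.732% and 5.38% for formaldehyde.

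Genes with more than 1 such peak were few, 13 of 24061 (0.054%), and they were long, with a median of 4907 bp for the 11 with 2 peaks. AT5G15680, of 10190 bp, held 3 peaks with scores of 118.0, 148.3 and 127.6. All lay wholly inside the gene, at 16.9%, 30.0% and 56.1% of its length. AT5G66150, of 5596 bp, also held 3, with scores of 103.8, 168.5 and 127.3, at 2.67%, 14.4% and 85.0% of its length, and the first of them also touched the neighbouring PAD2, which encodes a proteasome alpha subunit. Its first and second peaks were separated by only a few bases.

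The genes with 2 peaks had varied roles. RAPTOR1, a subunit of the TOR kinase complex, held peaks with scores of 105.0 and 172.4, on chromosome 3 from 2687458 to 2688525 and from 2689182 to 2690192. MCM3, a subunit of the replicative helicase, held peaks of 112.8 and 118.6 at 21.9% and 93.5% of the gene, on chromosome 5 from 18770036 to 18771040 and from 18772810 to 18774077. ATK3, a kinesin, held peaks of 113.2 and 166.6. DRP3A, a dynamin-related protein that divides mitochondria and peroxisomes, held peaks of 116.7 and 150.3. CHR42, a chromatin remodelling protein, held peaks of 115.3 and 136.6.

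The other genes with 2 peaks were EMB3129 (191.4 and 142.6), AT4G24840 (148.2 and 112.5), FRA8, a glycosyltransferase of xylan synthesis (140.8 and 109.1), AT2G43700 (126.2 and 153.5), AT2G41620 (106.4 and 114.6) and ABCC10, an ABC transporter (102.2 and 105.4). In ABCC10 a formaldehyde peak lay between both glutaraldehyde peaks. EMB3129 is named for its need in embryo development, and its peaks together spanned most of its 2314 bp. There were also 20 pairs of neighbouring genes that each held a peak, such as AT3G55080 and ABCG16. Of all arm genes 2.97% held one, so some pairs arise without any clustering. The 20 pairs were not tested against that share and are not read as clustering.

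**Figure D4:**
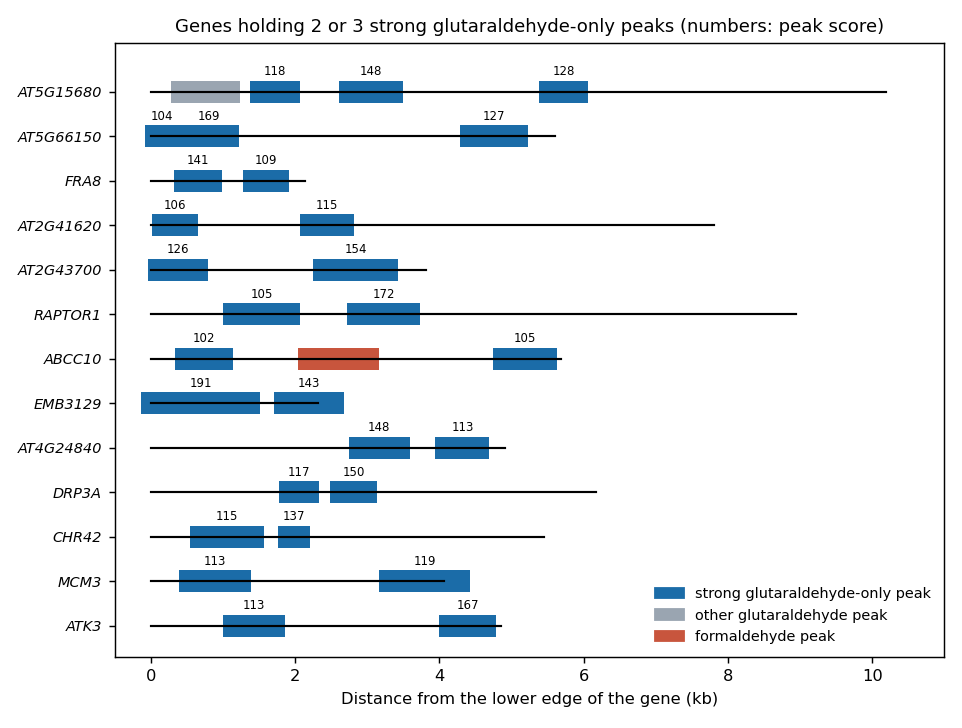
The 13 genes holding 2 or 3 strong glutaraldehyde-only peaks, each drawn as a line over its length in kb along the chromosome, with each peak as a bar with its score, a weaker glutaraldehyde peak in grey and a formaldehyde peak in red. AT5G15680 and AT5G66150 hold 3 peaks each, and the formaldehyde peak in ABCC10 lies between its glutaraldehyde peaks.

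The lists of hormone, light and seed genes held peaks in a few single genes. Of 5 lists, namely ABA biosynthesis (11 arm genes), ABA signalling (20), gibberellin metabolism (12), gibberellin signalling (8) and light signalling (17), 0 of 68 genes held a strong glutaraldehyde-only peak, and a count of 0 allows a share of up to 4.41% (3 counts of 68, a rule other than the exact intervals), which is above the 2.97% of all arm genes. A share below the background was thus not detectable at this list size. NCED9, a carotenoid cleavage enzyme of ABA synthesis in seeds, did have a strong glutaraldehyde peak, scoring 137.7 on chromosome 1 from 29491687 to 29492779, but it overlapped a formaldehyde peak. Among 4 ABA catabolism genes, CYP707A4, an ABA 8′-hydroxylase, had a peak of 146.8 on chromosome 3 from 6674938 to 6675637.

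The brassinosteroid list held 2 genes with a peak among 13, BRI1 and its homologue BRL1, which had a peak of 105.4 on chromosome 1 from 20783196 to 20783983. The other 2 genes of the BRI1 family had glutaraldehyde-only peaks with scores between 80 and 100. These were BRL2 with 89.3 on chromosome 2 from 443333 to 444105 and BRL3 with 91.2 on chromosome 3 from 4346509 to 4347360. All 4 genes of the family thus had a glutaraldehyde-only peak with a score of at least 80, where 5.24% of arm genes did. That share is over genes of all lengths, with a median of 2120 bp, and the median of the brassinosteroid list is 4309 bp. A formaldehyde peak also met BRL1 without overlapping its glutaraldehyde peak. The BRI1 family was singled out after its values were seen. These genes are similar in sequence, and the sources used here do not say how the authors placed reads that map to several sites, so the part of shared reads was not tested.

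Among 12 genes of seed dormancy, maturation and storage, CRU3, a cruciferin seed storage protein, held a peak of 1715 bp with a score of 220.2, on chromosome 4 from 14086774 to 14088488. The midpoint of this peak was only 75 bp inside CRU3. Of its length 54.4% lay in CRU3, and it also touched the neighbouring gene PHB1. Genes of the next list are long, with a median of 5553 bp. Among 22 chromatin and small RNA regulators, 3 held a peak. Beside DME these were AGO1, the main microRNA effector, with 129.0 on chromosome 1 from 17885341 to 17886212, and DCL2, a Dicer enzyme that makes small interfering RNAs, with 116.2 on chromosome 3 from 772289 to 773040. DCL4, of the same enzyme family, had 88.4, below the minimum. Over all 9 lists, 7 of 119 genes held a peak (5.88%), or 16.8 peaks per Mb of gene body, against 2.97% and 12.4 per Mb for all arm genes. With peaks that touched the body or its flanks within 1 kb, the lists again had 7 genes, where 4.62% of arm genes qualified.

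**Figure D5:**
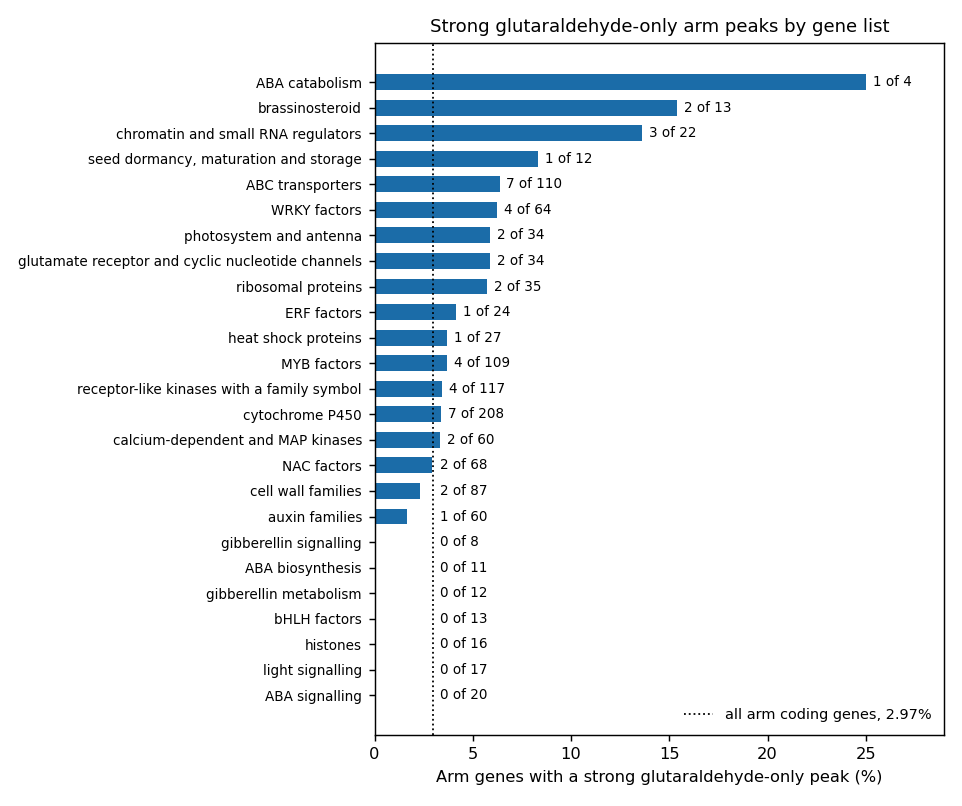
Share of the arm genes of each list or symbol family shown that hold a strong glutaraldehyde-only peak, in percent, with the share of all arm protein-coding genes (2.97%) as a line. The ABA biosynthesis, ABA signalling, gibberellin and light signalling lists are at 0.

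Of the 17 gene families taken by symbol, which leaves out family members with another main symbol, 42 of 1124 genes held a peak (3.74%). ABC transporters had 7 of 110, and these are long genes (15.7 peaks per Mb of gene body). They were led by ABCB6 (201.3), ABCG11, an exporter of cuticle lipids (169.2), ABCG16 (146.6) and ABCF1 (139.3). Cytochromes P450 had 7 of 208, led by CYP79C2 (193.1), CYP79B3, which converts tryptophan to indole-3-acetaldoxime (152.3), CYP71B7 (147.2) and CYP707A4. The shares were 6.36% and 3.37%, and per Mb of gene body the P450 genes held 15.0 peaks, against 12.4 for all arm genes.

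Transcription factor families taken by symbol held few peaks each. The shares were 6.25% for WRKY, 3.67% for MYB, 2.94% for NAC and 4.17% for ERF genes, against 2.97% of all arm genes. WRKY factors had 4 of 64 genes, WRKY35 (143.1), the defence regulator WRKY33 (120.6), WRKY20 (107.6) and WRKY47 (106.8). MYB factors had 4 of 109, among them MYB3R-4, an activator of mitotic genes, with 214.3, then MYB62 (135.1), the stomatal lineage factor MYB88 (104.9) and MYB7 (104.4). NAC factors had 2 of 68, NAC085 (153.2) and NAC062 (131.7). ERF6 (130.1) of 24 ERF genes and IAA7 of 60 auxin genes were single cases by symbol. Family members under another main symbol also held peaks. Examples are PAP2 (IAA27, 130.8), SHY2 (IAA3, 128.8), AT5G50760 (SAUR55, 111.5) and AS1 (MYB91, 151.75), named after their values were seen. HSFA9, a heat shock factor of maturing seeds, had 116.9 and was the only one of 27 heat shock genes. Genes with a bHLH symbol had 0 of 13 and the histones 0 of 16. FRU, also named BHLH029 and so outside the 13, had a peak of 109.1 and was picked after its value was seen.

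Receptor-like kinases and proteins with a family symbol had 4 of 117 genes, PERK1 (164.0), CRK41 (138.5), CRK29 (137.3) and RLP31 (133.8), where strong formaldehyde-only peaks were in 10. Calcium-dependent and MAP kinases had 2 of 60, CPK15 and MPK4, a kinase of defence and cell division, with 130.8. Glutamate receptor and cyclic nucleotide channels had 2 of 34, CNGC15 and CNGC8 (105.9). Cell wall families had 2 of 87, both cellulose synthases, CESA2 (117.2) and CESA4 of secondary walls (114.7). Photosystem and antenna genes had 2 of 34, LHCB2.3 (174.3) and PSBP-1 of the oxygen-evolving complex (135.4). Ribosomal symbols gave RPL3B (115.8) and RPS4 (106.0) among 35, but RPS4 is a disease resistance gene that shares the symbol pattern.

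Peaks that overlapped a formaldehyde peak were left out by the choice, so the distances to formaldehyde peaks are description only. The median distance to the nearest was 9580 bp, against 10783 bp for weaker glutaraldehyde-only peaks, and 24 of 718 (3.34%) lay within 500 bp of one. The closest were in BEL10, a homeodomain protein (35 bp, score 169.0), PUB25 (51 bp), PIA1, a protein phosphatase (66 bp, 102.7), LHCB2.3 with AT3G27700 (74 bp) and AT3G57060 (86 bp, 147.9).

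A formaldehyde peak met the body of 61 of the 714 genes (8.54%), against 11.1% of all arm coding genes. The count is lowered by the choice of peaks with no overlap, so nothing is read from it. The highest scoring of these were the peaks of CDT1A, IAA7, VSR7, a vacuolar sorting receptor (228.2, chromosome 4 from 10877577 to 10878658), POLD2, the small subunit of DNA polymerase delta (205.7, chromosome 2 from 17565367 to 17566249), and AT2G20100 (204.6). Strong peaks of both cross-linkers at different sites were found in 12 genes, which are 1.68% of the 714 glutaraldehyde genes and 2.51% of the 478 formaldehyde genes. Over all arm genes 1.99% held a strong formaldehyde-only peak and 2.97% a strong glutaraldehyde-only peak. The choice of peaks with no overlap lowers the count of 12 as well, so nothing is read from it. POLD2 had 205.7 with glutaraldehyde and 139.3 with formaldehyde. KAT1, an inward potassium channel of guard cells, had 138.2 and 113.2, OBP2, a DOF transcription factor, had 131.0 and 235.2, and SMC6A, of the SMC5/6 DNA repair complex, had 112.8 and 170.3. KAT1, OBP2 and SMC6A were chosen for naming after their values were seen.

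The peaks were found on all 5 chromosomes at similar densities. There were 178, 102, 132, 130 and 176 on chromosomes 1 to 5, or 7.35, 7.5, 8.02, 9.43 and 8.81 per Mb of arm, and 2.78% to 3.39% of each chromosome's arm genes held one. Each of the 79 full 1 Mb stretches of the arms held at least 3 and at most 15, with a median of 8. The formaldehyde set ran between 4.71 and 5.83 per Mb of arm over the chromosomes.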

How the data were processed

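Per the submitters' processing notes, reads were handled with Bowtie2 2.1.0, MACS 1.4.2 and assembly TAIR10; they do not state the control for peak calling, duplicate handling or depth. Libraries were read as pairs of 150 bp, per the labels. The deposited score of each peak is the authors' value; by background knowledge MACS 1.4.2 takes it as the negative log10 of its p-value multiplied by 10, and the lowest here is 50. Scores were used to rank and filter within a list; where scores of both lists stand side by side, they are values on scales that depth may shift. Samples were grouped by title. Peaks are given in TAIR10, counted from 1. Genes came from the RefSeq table of TAIR10.1, which has no strand, exons or sequence, and no genome was at hand, so the planned motif counts were not made. A gene held a peak if the midpoint lay in its body; the arms are 88.0 Mb. Overlap was 1 bp. Exact Clopper-Pearson intervals have 95% confidence. The code for overlaps, midpoints in genes and distances was checked against a base-by-base answer on simulated coordinates. No hypothesis test was run. Tools were Python 3.11.15, pandas 2.3.3 and scipy 1.17.1. Peaks, lists (9 by locus with 128 genes, 17 by symbol) and alternatives were chosen with earlier results of these data known. Named are HID1, the 20 highest peaks, genes with several peaks and listed genes (up to 4 per family). Also named are the 5 peaks either side of the minimum, the 5 widest, the 5 highest over an edge and the 5 highest in genes with a formaldehyde peak. Outside these rules, names were given to the peak nearest HID1, peaks on small RNA genes and those closest to a formaldehyde peak. So were other genes touched by a named peak and listed genes whose peak missed the choice. The remaining genes are said to be chosen after their values were seen. The result of 1 symbol family is not reported here.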

Additional observations from a re-analysis of the deposited data

How the results depend on the processing

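Limits: scores come from 1 library per cross-linker of unknown depth, and a deeper library gives more and higher scoring peaks. No paired analysis was possible because each cross-linker has 1 library and no test was made. A score minimum of 80 gave 1283 peaks in 1261 genes and a minimum of 150 gave 219 peaks in 225 genes, by construction. The other 4 choices (500 bp clearance, strong formaldehyde peaks only, 90% of the peak inside, wider intervals) gave 493 to 756 peaks, and counting any 1 bp inside the body gave 968 genes. The median width of 843 bp became 986 bp at a minimum of 150. The middle of the gene (the central one of 3 equal parts) held 29.5% of midpoints, 26.9% and 30.6% at the other minimums, and 41% among peaks with at least 90% inside a gene, which removes peaks over the edges. The first and last 20% held 44.3% of midpoints, 49.2% in genes of at least 3 kb and 45.4% at widths of 700 to 1100 bp, both added after the data had been seen. Lists by locus gave 7 genes, and 10 at a minimum of 80; symbol families gave 42, and 70 at a minimum of 80. Counting peaks in the body or within 1 kb gave 7 and 58, where 4.62% of arm genes qualified.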

Other observations

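Several small groups with more than 1 strong glutaraldehyde-only peak were noticed after the values were seen, so their counts support nothing and are given as values. Among 4 DNA demethylase genes, DML3 had a peak of 160.8 beside DME with 324.4. Among 6 ATPases and SWI3 subunits of the SWI/SNF chromatin remodelling complexes, SWI3B had 228.4, CHB3 204.8 and SYD 108.6. Of 5 MCM and CDT1 replication genes on the arms, CDT1A and MCM3 had peaks. Among 8 genes for structural maintenance of chromosomes proteins, TTN7 and SMC6A had peaks. Many of these genes are long, with medians of 4392 bp for the SWI/SNF list and 7484 bp for the SMC list, against 2120 bp for all arm genes.

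Metabolic and clock genes gave further cases. Of 8 sucrose synthase and sucrose phosphate synthase genes, SUS1 had 217.9, ATSPS4F 129.9 and SPS2F 112.3. Of 5 NRAMP metal transporter genes, NRAMP5 had 135.0, NRAMP4, which releases vacuolar iron in germinating seeds, 131.8 and NRAMP6 118.1. Of 5 pseudo-response regulators of the circadian clock, PRR5 had 175.0 and PRR3 115.4. Outside the lists, LRB1, a ubiquitin ligase adaptor that acts on phytochrome B and its partner PIF3, had a peak of 223.1 on chromosome 2 from 18995385 to 18996838. PIL1, a light-regulated bHLH protein related to the phytochrome interacting factors, had 106.7, and AREB3, a bZIP factor of the ABA response family, had 103.7. LRB1, PIL1 and AREB3 were picked by role from the 714 genes with a peak after their values were seen, so they support nothing.

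The short arm of chromosome 4 stood apart in density, also noticed after the fact. Its 1.5 Mb held 22 peaks, or 14.7 per Mb (exact Poisson interval 9.19 to 22.2, counting error only), against 8.16 per Mb on all arms. Of its 401 coding genes 5.24% held a peak (3.27 to 7.89), against 2.97% of all arm genes. Strong formaldehyde-only peaks numbered 6 there, or 4.0 per Mb, against 5.32 per Mb on all arms. It was picked as the extreme of 10 arms, and the difference was not tested.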
